A study of Mus musculus with 18 samples.

Results

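A set of genes grouped under B cell antigen receptor signalling was followed here through its accessible chromatin. The set held 9 genes: the kinases Lyn, Blk, Syk and Btk, the adaptors Blnk and Bank1, the phospholipase Plcg2, and the exchange factors Vav2 and Ralgps2. A region of the deposited count table belonged to a gene of the set when the nearest gene end within 50 kb, among protein-coding genes of a mouse GRCm38.p6 gene table, was an end of that gene. The 9 genes themselves were chosen with earlier results of these data known. The rule for regions used positions only and chose 50 of the 27396 regions. Bank1 had 8 of them, Lyn, Syk and Vav2 had 7 each, Blnk and Ralgps2 had 6 each, Plcg2 had 4, Btk had 3 and Blk had 2.

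Accessibility was read by ATAC-seq, in which a transposase cuts and tags open DNA, on nuclei cut by laser from frozen sections of spleen. There were 18 libraries: 5 of B patches and 5 of T patches, 4 of B cells taken as 100 nuclei and 4 of T cells taken as 100 nuclei. All came from C57BL/6J wild-type mice, whose age and number the labels do not state. A patch library joined 10 captured areas of immunostained tissue with about 1000 nuclei in all, so it can hold neighbouring cells of other types, while the smaller libraries joined 100 nuclei captured one by one. The labels describe replicates as technical and tie none to an animal, so the p-values below measure only the spread between these libraries.

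When antigen binds the receptor, Src-family kinases such as Lyn phosphorylate the tails of the receptor's signalling chains, and Syk docks there and is activated. Syk phosphorylates the adaptor Blnk, which brings Btk and Plcg2 together at the membrane, and the lipase then releases the messengers that raise calcium and activate protein kinase C. T cells run a parallel chain with Lck, Zap70, Lcp2 and Plcg1, while myeloid cells also use Lyn, Syk, Btk and Plcg2.

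Totals were 2713677 to 6553535 counts in B patches, 2193837 to 7343204 in T patches, 547333 to 720555 in B libraries of 100 nuclei and 319481 to 1076765 in T libraries of 100 nuclei. Mitochondrial regions took 18.8% to 33.6% of counts in B patches and 16.1% to 23.1% in T patches. The patch libraries numbered 2 had reads in 75.4% (B) and 74.2% (T) of all regions, against 90.1% or more in the other patches, and T libraries 3 and 4 of 100 nuclei in 14.4% and 12.1%. Regions of 13 B cell marker genes held 0.242% to 0.306% of nuclear counts in B patches, against 0.05004% to 0.0769% in T patches. Regions of 12 T cell marker genes held 0.0345% to 0.0558% in B patches, against 0.157% to 0.225% in T patches, so the labelled types and the markers pointed the same way, and each patch type also held reads at markers of the other. Cd4 had no region.

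Sequence just upstream of the gene is shown for 3 genes whose annotated start was overlapped by a region in which every B patch lay above every T patch. Syk had such a region too, but its window lies inside the annotated gene. The stretches are from RefSeq on GRCm38.p6, written 5′ to 3′ on the gene's strand and cut to bases outside the annotated gene. Capitals mark a match to the octamer ATGCAAAT, here on its other strand as ATTTGCAT.
Bank1 promoter: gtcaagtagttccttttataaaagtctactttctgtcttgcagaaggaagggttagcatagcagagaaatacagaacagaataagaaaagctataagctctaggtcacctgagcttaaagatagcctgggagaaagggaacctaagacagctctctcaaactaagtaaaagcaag
Plcg2 promoter: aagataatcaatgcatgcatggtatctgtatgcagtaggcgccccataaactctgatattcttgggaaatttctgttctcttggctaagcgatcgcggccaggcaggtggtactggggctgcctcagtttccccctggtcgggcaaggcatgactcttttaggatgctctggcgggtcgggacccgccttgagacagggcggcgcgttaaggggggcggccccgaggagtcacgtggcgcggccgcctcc
Blnk promoter: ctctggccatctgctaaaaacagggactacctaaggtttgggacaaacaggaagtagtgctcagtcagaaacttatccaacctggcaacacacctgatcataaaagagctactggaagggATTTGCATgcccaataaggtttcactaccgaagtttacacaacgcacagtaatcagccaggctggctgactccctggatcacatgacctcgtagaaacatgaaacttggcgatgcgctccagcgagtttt
The Bank1 stretch was chr3:136326142-136326316 on the minus strand, and all 175 bases lay inside a counted region. It held 39.4% G and C and 0 CpG pairs. The full Bank1 window of 250 bases before the start, part of it inside the annotated gene, held 46.4% and 2. The Plcg2 stretch was chr8:117498025-117498274 on the plus strand, with 94 of 250 bases inside the region, 59.6% G and C and 17 CpG pairs. The Blnk stretch was chr19:40994222-40994471 on the minus strand, with 123 of 250 bases inside the region, 47.6% G and C and 6 CpG pairs. Across 21263 windows of 250 bases before protein-coding starts, the median was 55.6% G and C and 10 CpG pairs. The Blnk octamer lay at 40994344 to 40994351, with its last base on the gene's strand at the edge of the counted region. A match to the octamer on either strand was found in 1.58% of those windows. Searches on both strands for tccc, any pair of bases and then ggga (EBF1), GAGGAAGT (PU.1 and ETS) and TGTGGTT (RUNX), which occur in 0.832%, 2.23% and 3.82% of windows, found no match in the windows of the 7 genes that had one. Blk and Lyn had no entry.

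In patches most genes of the set had more reads in B cells, at single regions or summed over a gene's regions. Ralgps2, which has no step in the chain outlined above, did not. Of the 48 regions tested, 6 passed at an adjusted p of 0.05 with more reads in B (12.5%), against 1.22% of all 25712 regions tested. They lay at Syk (2 regions), Lyn, Bank1, Plcg2 and Vav2. Because the genes were chosen with earlier results known, shares of the set against all regions describe it and do not test it. No region of the set passed with fewer reads in B by edgeR's quasi-likelihood test, against 1.05% of all regions. With a share that small, 0 of 48 is near the background. DESeq2 called 0 of the 48 lower in B, against 986 of all 25712 regions. At an unadjusted p under 0.05 by edgeR, 24 of the 48 were higher in B, against 6.91% of all regions. None was lower, for which no share of all regions is given here. The log2 fold change of B over T was positive at 43 of 48 regions (89.6%), against 48.7% of all regions, with a median of 2.01, against −0.03. Outside Ralgps2 it was positive at 41 of 42, with a median of 2.10. In 16 of 48 regions every B patch lay above every T patch, which held for 4.33% of all regions, and in none did every B patch lie below every T patch, against 3.69%. In bulk captures, fewer cells with an open region and less opening per cell cannot be told apart.

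**Figure D1:**
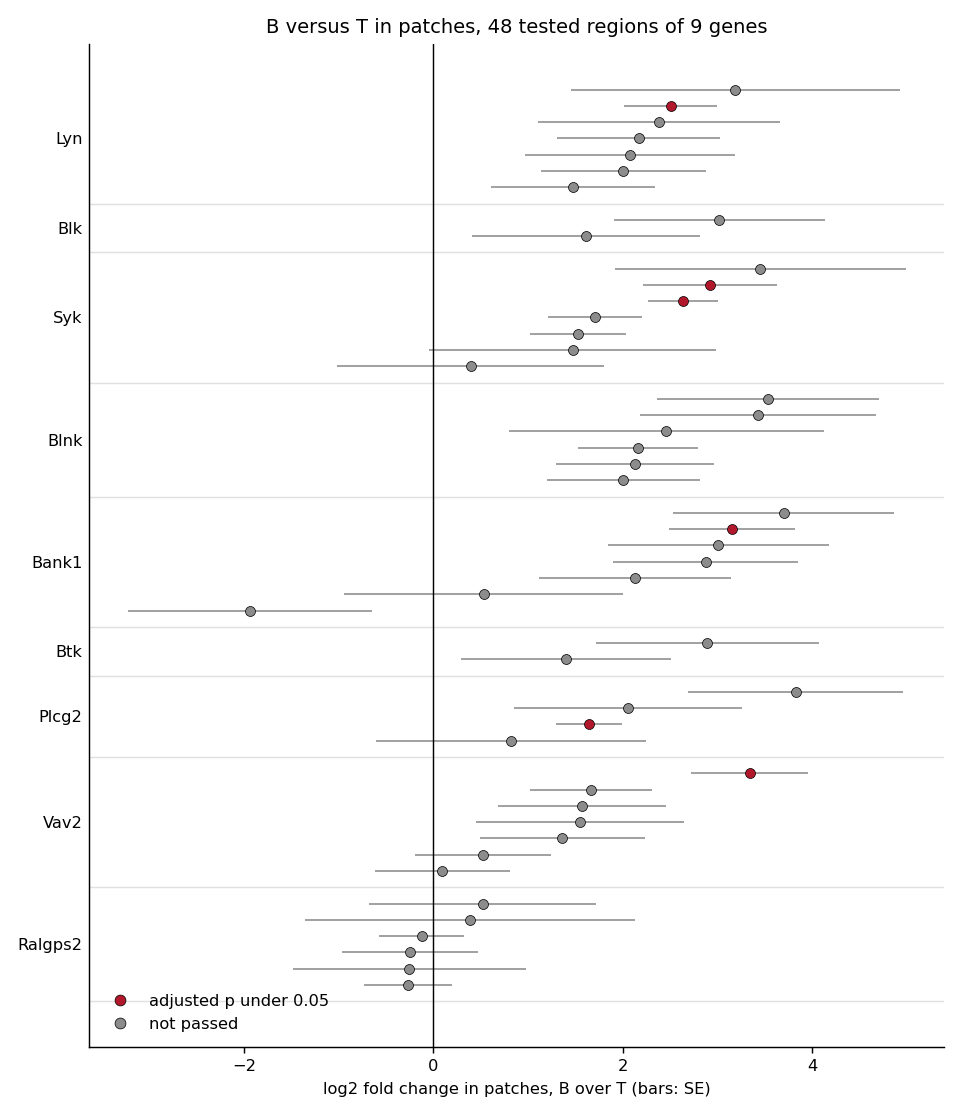
Log2 fold change of B over T in patches (x axis) for each of the 48 tested regions, grouped by gene; bars are SE and red points passed at an adjusted p of 0.05. The points lie right of 0 for 43 regions, while those of Ralgps2 sit around 0.

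The 6 regions that passed were among the better covered ones. All 6 came from the 20 regions of the set at or above the median abundance of all regions, while the median fold change of the 28 less abundant ones was 2.07. Of all 12856 regions at or above the median, 264 passed higher in B and 194 lower. By position, 2 of 7 tested regions at a gene end, 2 of 33 inside a gene and 2 of 8 outside passed. Among all assigned regions, 30 of 6821 at an end (0.44%), 109 of 9897 inside (1.1%) and 109 of 5975 outside (1.82%) passed higher in B. DESeq2 called 18 of the 48, all higher in B, against 4.38% of all regions, with at least 1 at each gene except Btk and Ralgps2. When all 4 groups shared one fit, no region of the table passed in patches.

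Of the Src-family kinases next to the receptor, Lyn was higher in B patches and Blk did not pass. Lyn phosphorylates the receptor chains first, and also acts on inhibitory receptors. Its called region, chr4:3649030-3649402, lay 28.7 kb outside the gene and had 85.7, 44.8, 68.8, 40.4 and 49.6 normalized CPM (counts over the TMM-scaled library size) in B patches, against 10.9, 6.03, 6.89, 21.3 and 5.56 CPM in T patches. Each B patch lay above each T patch. Its log2 fold change was 2.51 ± 0.49 (SE; adjusted p = 0.00932, edgeR). The region at the Lyn end, chr4:3678034-3678181, had 30.6, 0, 35.8, 24.6 and 23.7 CPM in B patches, against 3.56, 0, 11.1, 11.8 and 0.445 CPM in T patches. B patch 2 had no read there and the groups overlapped, and the fold change of 2.07 ± 1.11 did not pass (adjusted p = 0.479, edgeR). All 7 Lyn regions had a positive fold change, from 1.48 to 3.19.

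Reads summed over a gene's regions gave 1 value per gene and were tested over 11106 genes, of which 2.4% passed higher in B. Of the 9 genes, 6 passed by this measure, all higher in B: Lyn, Syk, Blnk, Bank1, Plcg2 and Vav2. For these and Btk every B patch lay above every T patch, which held for 4.07% of all genes. Lyn summed to 243 ± 42.1 CPM in B patches and 54.0 ± 28.1 CPM in T patches (SD, n = 5 each), a log2 fold change of 2.17 ± 0.31 (adjusted p = 0.00027, edgeR).

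Blk, a Src-family kinase found mainly in B lineage cells, had only 2 regions and few reads. The region at its end, chr14:63417135-63417297, had 34.1, 8.44, 18.4, 44.4 and 6.97 CPM in B patches, against 0, 0, 1.32, 8.52 and 3.78 CPM in T patches. The B libraries ranged widely and the lowest overlapped the highest T library, T patch 4, and the fold change of 3.02 ± 1.11 did not pass (adjusted p = 0.195, edgeR). Its gene sum was 57.0 ± 32.6 CPM in B patches and 12.2 ± 18.8 CPM in T patches (SD, n = 5 each), with an adjusted p of 0.198 (edgeR). T patch 4 held 45.2 CPM of this sum, against 0 to 8.59 CPM in the other T patches, and without that library the Blk sum passed (log2 fold change 3.84, adjusted p = 0.0156, edgeR).

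Syk, the kinase that binds the phosphorylated receptor tails, had a positive fold change at all 7 of its regions, 2 of which passed as higher in B patches. Its called region outside the gene, chr13:52572484-52572991, 9.62 kb from the end, had 125, 110.1, 93.5, 91.8 and 104 CPM in B patches, against 14.2, 16.1, 16.9, 6.76 and 29.8 CPM in T patches. No T patch came near the lowest B patch. The log2 fold change was 2.64 ± 0.37 (adjusted p = 0.00162, edgeR), the smallest adjusted p among the 48 regions. A second called region inside the gene, chr13:52600473-52600584, 17.9 kb from an end, had 26.3, 29.4, 28.0, 34.0 and 25.2 CPM in B patches, against 1.02, 2.81, 5.03, 6.01 and 3.78 CPM in T patches. It lay 3.59 kb from the later of the RefSeq starts listed for Syk. Here too the groups did not overlap, with a fold change of 2.92 ± 0.71 (adjusted p = 0.0328, edgeR). That call was lost in 7 of the 10 fits that left out a library (without B patch 1, 3, 4 or 5, or T patch 1, 3 or 5), with adjusted p from 0.0634 to 0.096 and the fold change from 2.68 to 3.05.

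The pair of regions around the first listed Syk start had positive fold changes that did not pass. At the gene end, chr13:52582517-52582890 had 53.4, 60.6, 21.8, 46.9 and 57.0 CPM in B patches, against 10.4, 19.7, 4.63, 29.1 and 19.3 CPM in T patches, with overlap between B patch 3 and T patch 4 and a fold change of 1.53 ± 0.51 (adjusted p = 0.135, edgeR). The neighbour chr13:52582956-52583504 had 58.2 ± 19.2 CPM in B patches and 17.7 ± 9.59 CPM in T patches (SD, n = 5 each), and its groups did not overlap (fold change 1.71 ± 0.49, adjusted p = 0.0776, edgeR). Summed over its 7 regions, Syk had 369.9, 440.4, 301, 416 and 371 CPM in B patches, against 87.6, 101, 81.5, 85.9 and 96.1 CPM in T patches. The T patches lay close together and far below all B patches, and the gene sum differed by a log2 fold change of 2.07 ± 0.19 (adjusted p = 9.05e-06, edgeR).

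**Figure D2:**
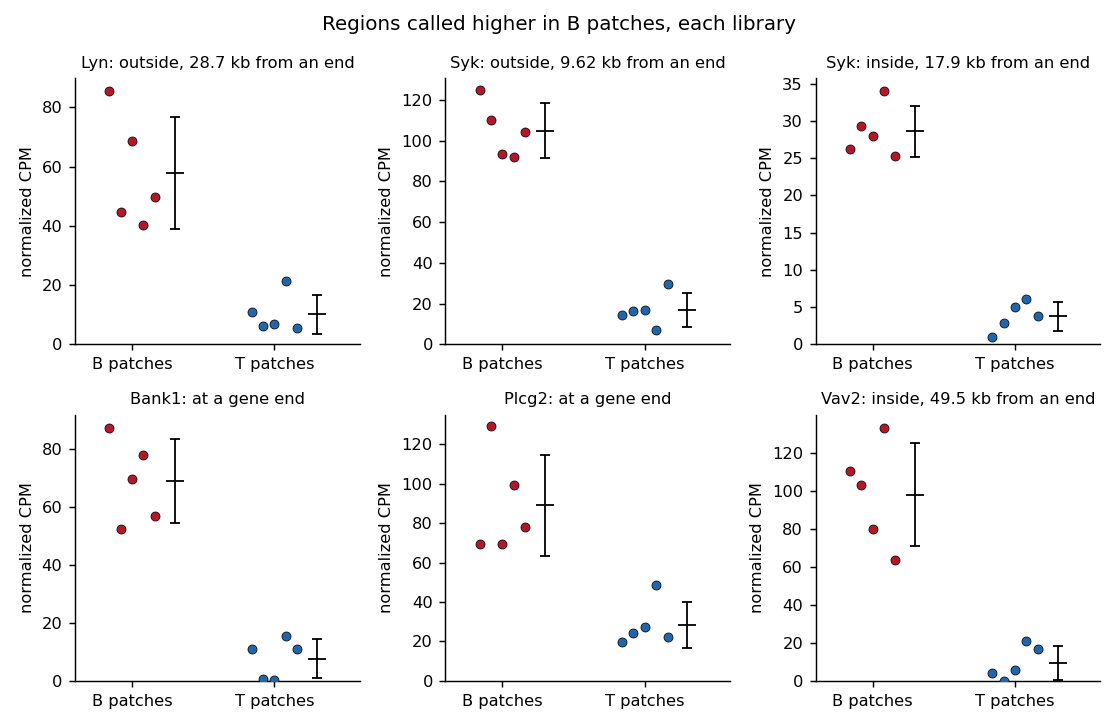
Normalized CPM (y axis) in each patch library at the 6 regions that passed, B patches left of T patches; points are libraries and the bar beside them is the mean ± SD (n = 5). In every panel the lowest B patch lies above the highest T patch.

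Summed over their regions, the adaptors Blnk and Bank1 were both higher in B patches. Blnk is the scaffold that Syk phosphorylates, and none of its 6 regions passed by edgeR, although DESeq2 called 3, against 4.38% of all regions higher in B, and 5 were higher at an unadjusted p under 0.05, against 6.91%. The region at its start, chr19:40994114-40994344, which overlaps the printed sequence, had 68.3, 114, 41.8, 78.9 and 51.0 CPM in B patches, against 19.8, 0, 13.2, 10.5 and 34.9 CPM in T patches. All B patches lay above all T patches, with a fold change of 2.16 ± 0.64 (adjusted p = 0.0819, edgeR), and the region passed once T patch 2, with no read there, was left out (fold change 1.83, adjusted p = 0.0246, edgeR). All 6 Blnk regions had positive fold changes, from 2.01 to 3.53. Together they summed to 249 ± 52.7 CPM in B patches and 45.9 ± 22.7 CPM in T patches (SD, n = 5 each), and the sum passed with a log2 fold change of 2.43 ± 0.32 (adjusted p = 0.000166, edgeR).

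Bank1, a scaffold with ankyrin repeats that binds Lyn in B cells, passed at its start. The region chr3:136325843-136326339, which holds the whole printed stretch, had 87.5, 52.5, 69.8, 78.0 and 57.0 CPM in B patches, against 10.9, 0.804, 0.397, 15.5 and 10.9 CPM in T patches. T patches 2 and 3 were close to no reads, and no T patch reached the lowest B patch. The log2 fold change was 3.15 ± 0.67 (adjusted p = 0.0156, edgeR). Of the 7 tested Bank1 regions 6 had a positive fold change, from 0.53 to 3.70. The remaining one, chr3:136101503-136101719, lay 48.1 kb inside from the far end with 2.38 ± 2.11 CPM in B patches and 9.24 ± 8.36 CPM in T patches (SD, n = 5 each), and its fold change of −1.94 ± 1.29 did not pass (adjusted p = 0.641, edgeR). The Bank1 sum was 234 ± 70.2 CPM in B patches and 45.1 ± 16.8 CPM in T patches (SD, n = 5 each), with a fold change of 2.37 ± 0.30 (adjusted p = 0.000104, edgeR).

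Btk, the Tec-family kinase whose loss causes X-linked agammaglobulinaemia in humans and the xid defect in mice, was read only deep in its gene. The regions near its ends were nearer to Timm8a1 (3 regions) and Rpl36a (1 region), and all 3 regions counted for Btk lay 16.6 to 18.95 kb inside. The one nearest an end, chrX:134566957-134567067, had 10.7, 10.6, 1.25, 7.66 and 3.32 CPM in B patches, against 0, 0, 0.132, 0.501 and 0 CPM in T patches, and it held too few reads to be tested. The groups did not overlap there, and 3 T patches had no read. Neither of the other 2 regions passed, with fold changes of 2.90 ± 1.17 and 1.40 ± 1.11. The Btk sum was 67.3 ± 31.5 CPM in B patches and 12.9 ± 12.2 CPM in T patches (SD, n = 5 each), with all B patches above all T patches and a fold change of 2.404 ± 0.73 that did not pass (adjusted p = 0.0773, edgeR). It passed without T patch 2 (fold change 2.89, adjusted p = 0.0256, edgeR). The region at the Rpl36a end, just outside Btk, had 34.0 CPM in both B and T patches (log2 fold change 0.00 ± 0.46).

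Plcg2, the lipase that Btk and Syk activate, passed at its start. The region chr8:117498181-117498821, which overlaps the printed sequence, had 69.6, 129, 69.2, 99.4 and 78.2 CPM in B patches, against 19.6, 24.1, 27.4, 48.6 and 22.2 CPM in T patches. Every T patch had reads there, and the fold change of 1.65 ± 0.35 was the smallest of the 6 that passed (adjusted p = 0.0155, edgeR). All 4 Plcg2 regions had positive fold changes, from 0.82 to 3.83. The sum was 184 ± 46.3 CPM in B patches and 51.4 ± 18.1 CPM in T patches (SD, n = 5 each), with a fold change of 1.84 ± 0.29 (adjusted p = 0.000744, edgeR).

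Of the exchange factors, Vav2 passed and Ralgps2 did not. Vav2, a guanine nucleotide exchange factor, had a strong difference far from its ends and a flat one at the region nearest its start. The region chr2:27311653-27312077, 49.55 kb inside the gene, had 110.3, 103, 79.7, 133 and 63.6 CPM in B patches, against 4.32, 0, 5.83, 20.8 and 16.7 CPM in T patches, without overlap (fold change 3.34 ± 0.62, adjusted p = 0.00714, edgeR). The region nearest the start, chr2:27426853-27427242, had 43.8, 0, 61.0, 45.5 and 52.3 CPM in B patches, against 17.0, 9.64, 68.7, 33.8 and 60.0 CPM in T patches. The values there overlapped fully, and the fold change of 0.10 ± 0.71 turned negative with library sizes alone (−0.069). The other Vav2 region near the start, 0.93 kb from it, had a fold change of 1.55 ± 1.10 that did not pass (adjusted p = 0.681, edgeR). All 7 Vav2 regions had a positive fold change in the main fit, from 0.10 to 3.34. The Vav2 sum passed with 349 ± 65.5 CPM in B patches and 124 ± 70.7 CPM in T patches (SD, n = 5 each; fold change 1.48 ± 0.33, adjusted p = 0.0124, edgeR). Summed only within 10 kb of the gene's ends, it did not pass, with a fold change of 0.39.

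Ralgps2, an exchange factor for Ral GTPases, had no region within 50 kb that passed. Its 6 regions had fold changes from −0.27 to 0.52, with a median of −0.18. The region at its end, chr1:156939774-156939882, had 0, 0, 19.4, 0 and 5.64 CPM in B patches, against 0, 2.81, 4.11, 12.3 and 0 CPM in T patches, with several libraries at 0 in each group (fold change 0.39 ± 1.75, adjusted p = 0.982, edgeR). Its sum was 90.0, 99.6, 167, 149.8 and 159 CPM in B patches, against 126, 138, 155, 193 and 114 CPM in T patches. These values were interleaved (fold change −0.13 ± 0.25, adjusted p = 0.909, edgeR).

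The distance limit fell between regions that both had many reads in B patches. The last region inside it was the Vav2 region at 49.55 kb. The first region outside it, chr1:156990256-156990504, lay 50.41 kb from the Ralgps2 end, which was its nearest protein-coding end, and is not counted in any value above. It had 65.0, 52.1, 51.9, 22.3 and 26.4 CPM in B patches, against 1.78, 0, 0.795, 2.25 and 3.33 CPM in T patches, a log2 fold change of 4.69 ± 0.75. The next regions beyond the limit whose nearest end was that of Ralgps2, at 56.74, 63.24 and 77.77 kb, had fold changes of 2.96 ± 0.91, 1.71 ± 0.95 and 1.26 ± 0.52. Each of these 4 lay above the range of the 6 nearer Ralgps2 regions.

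**Figure D3:**
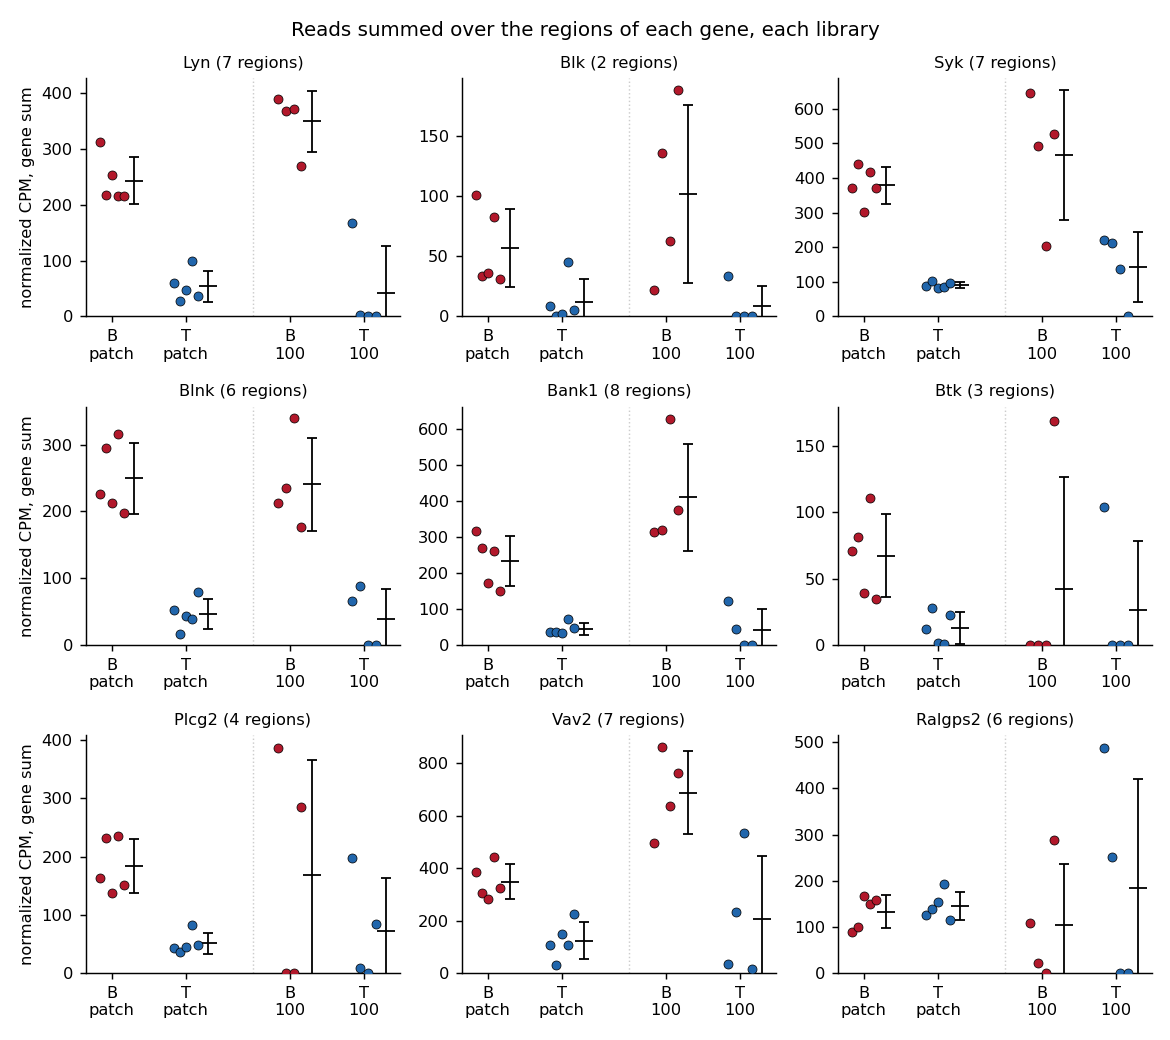
Normalized CPM summed over the regions of each gene (y axis) in each library, for B patches, T patches, B 100 nuclei and T 100 nuclei; points are libraries and the bars are mean ± SD (n = 5 for patches, n = 4 for 100 nuclei), cut off at 0. Syk, Bank1, Blnk, Lyn, Plcg2, Vav2 and Btk show no overlap between B and T patches, while Ralgps2 overlaps fully.

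In captures of 100 nuclei the set leaned the same way, but no single region passed. Regions of the 9 genes took 0.215% ± 0.0191 of nuclear counts in B libraries and 0.0710% ± 0.0411 in T libraries of 100 nuclei (SD, n = 4 each). Patches gave 0.176% ± 0.0238 for B and 0.0554% ± 0.0118 for T (SD, n = 5 per cell type), and in both sizes every B library lay above every T library. Of the 50 regions, 15 to 27 had a read in B libraries of 100 nuclei and 2 to 18 in T libraries, against 40 to 50 in B patches and 24 to 47 in T patches. At 100 nuclei these were 30% to 54% in B and 4% to 36% in T, against 27.8% to 40.0% and 12.1% to 38.8% of all regions. In patches they were 80% to 100% in B and 48% to 94% in T, against 75.4% to 98.15% and 74.2% to 96.4% of all regions.

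**Figure D4:**
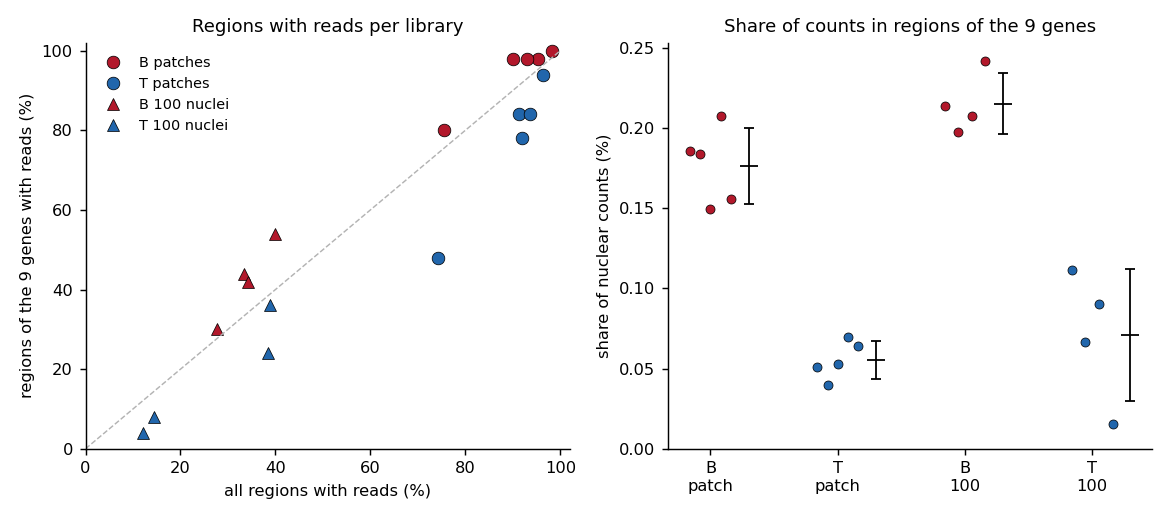
Left, percent of the 50 regions of the set with reads (y axis) against percent of all regions with reads (x axis) per library, with a line of equality; right, percent of nuclear counts in regions of the set (y axis), points being libraries and bars mean ± SD. B libraries hold 0.150% to 0.242% and T libraries 0.0157% to 0.111% in the right panel.

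None of the 48 regions passed at 100 nuclei by edgeR, against 0.0156% of all regions, and 4 had an unadjusted p under 0.05, against 5.5% of all regions. DESeq2 called 0 as well. The joint fit of all 4 groups called 6955 of all 25712 regions, 4625 of them higher in B, and 17 of the 48, all higher in B. More B than T libraries had reads at 28 of the 48 regions (58.3%), against 43.0% of all regions, and fewer did at 4 (8.33%), against 23.1%. All B libraries lay above all T libraries at 3 regions, against 0.727% of all regions. The Vav2 region at 49.55 kb was one, with 51, 97, 58 and 39 counts in B libraries, against 20, 0, 0 and 0 in T libraries. The called Lyn region was another, with 32, 33, 136 and 13 counts in B libraries, against 1, 0, 0 and 0 in T libraries. The third lay inside Bank1, chr3:136302608-136302792, with 53, 33, 14 and 14 counts in B libraries, against 0, 0, 0 and 0 in T libraries. So at these 3 regions each B library had reads and the T libraries had few or none.

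The other regions called in patches had reads in only some of these libraries. The outer Syk region had 74, 117, 50 and 55 counts in B libraries, against 13, 75, 13 and 0 in T libraries, and the inner one 0, 34, 25 and 28 in B libraries, against 61, 0, 0 and 0 in T libraries. The Bank1 start had 0, 17, 141 and 23 counts in B libraries, against 0, 0, 0 and 0 in T libraries. The Plcg2 start had 69, 0, 0 and 19 counts in B libraries, against 37, 5, 0 and 0 in T libraries. Both B and T libraries were at 0 in places. Among regions nearest a gene end that did not pass in patches, the Blnk start had 0, 0, 52 and 41 counts in B libraries, against 0, 50, 0 and 0 in T libraries. The Vav2 start region had 29, 0, 143 and 80 in B libraries, against 0, 131, 220 and 0 in T libraries. The Syk end had 65, 0, 0 and 0 in B libraries, against 0, 0, 63 and 0 in T libraries. The Lyn end had 20, 2, 0 and 0 in B libraries, against 0, 0, 0 and 0 in T libraries. At Blk, Ralgps2 and the untested Btk region at most 1 library of each cell type had reads. Reads without molecular identifiers are not independent molecules, so a large count in 1 library can stem from few fragments.

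Gene sums at 100 nuclei gave no call in the set by edgeR (0 of 9, against 0.009% of 11106 genes) or by DESeq2. Bank1 alone had an unadjusted p under 0.05 by edgeR. No share of all gene sums is given for that, so it does not set Bank1 apart. Bank1 summed to 315, 321, 629.7 and 377 CPM in B libraries, against 123, 44.1, 0 and 0 CPM in T libraries. Lyn summed to 390.1, 367, 372 and 269 CPM in B libraries, against 168, 1.76, 0 and 0 CPM in T libraries, and Blnk to 212, 234, 339 and 177 CPM in B libraries, against 65.1, 88.2, 0 and 0 CPM in T libraries. At these 3 genes every B library lay above every T library, which held for 2.04% of all genes. Their log2 fold changes were 3.29 ± 1.62 for Bank1, 3.04 ± 1.77 for Lyn and 2.64 ± 2.16 for Blnk, with large errors. Blk (3.56 ± 3.20) had reads in all 4 B libraries and in 1 T library, and Vav2 (1.74 ± 0.98) and Syk (1.71 ± 1.25) were positive with overlap. Plcg2 (1.20 ± 2.24) had 124, 0, 0 and 74 counts in B libraries, against 106, 5, 0 and 32 in T libraries. Btk (0.69 ± 3.16) had 0, 0, 0 and 44 counts in B libraries, against 56, 0, 0 and 0 in T libraries. Ralgps2 was at −0.82 ± 1.999. The difference of B over T between patches and 100 nuclei passed at none of the 48 regions (background 0.0%) by edgeR, while DESeq2 called 4 of the set and 3222 regions in all. An unadjusted p under 0.05 was found for 27.1% of the set and 27.1% of all regions.

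The wider pathway held calls in both directions. Of 80 other genes of B cell receptor signalling, 75 had a region, and of their 309 tested regions 11 passed higher in B (3.56%, against 1.22% of all regions) and 4 lower (1.29%, against 1.05%), with a median log2 fold change of 0.11, against −0.03. Those with the smallest p were at the complement receptor Cr2 (2.78 ± 0.45), the receptor chain Cd79b (2.99 ± 0.53), the inhibitory co-receptor Cd22 (2.04 ± 0.45) and Csk, the kinase that restrains Src-family kinases (1.83 ± 0.41), all higher in B. The lower ones among them were at Cd5, a surface protein of T cells and some B cells (−2.15 ± 0.46), and Pik3r1, a regulatory subunit of PI3 kinase (−2.404 ± 0.52). By gene sums 8 of the 75 genes passed higher in B (10.7%, against 2.4% of all genes) and 2 lower (2.67%, against 1.87%). The 2 lower sums were those of Prkcq (−2.11 ± 0.24), also in the T cell receptor list below, and Cd5 (−1.79 ± 0.31).

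A broader list of kinases and adaptors of T cell receptor signalling went the other way. Of 24 genes 23 had a region, and 5 of their 83 tested regions passed, all lower in B (6.02%, against 1.05% of all regions). Among them were regions at Themis (−3.14 ± 0.47), the Tec kinase Txk (−1.90 ± 0.47), and the adaptors Nck2 (−2.48 ± 0.59) and Skap1 (−4.30 ± 1.02). The fold change was positive at 20 of the 83 regions and its median was −0.61. It was 2.01 in the set of 9 genes and 0.11 in the wider B receptor list. By gene sums 6 of the 23 passed, all lower in B (26.1%, against 1.87% of all genes), among them Lck, the Src-family kinase of T cells (−1.18 ± 0.25). Genes such as Fyn, Vav1 and Prkcq stood in both lists, so the lower Prkcq sum is counted in each.

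Shares of reads at markers of other cell types were compared as ranges. The 5 macrophage and monocyte genes with a region, of 10 listed, took 0.0215% to 0.0322% of nuclear counts in B patches and 0.00981% to 0.0217% in T patches, and 1 of their 11 regions passed higher in B. Adgre1, Csf1r, Itgam and Ly6c2 were among those 5, and all 5 had reads in both patch types. The 3 of 7 dendritic cell genes with a region took 0.0148% to 0.0269% in B patches and 0.00380% to 0.0123% in T patches. At 100 nuclei the macrophage genes took 0.0156% to 0.0307% in B libraries and 0 to 0.0302% in T libraries, and the dendritic cell genes 0.00489% to 0.0311% in B and 0 to 0.0529% in T, so the groups overlapped. Csf1r had no read in T libraries of that size and Clec9a none in B libraries. None of the 6 neutrophil genes had a region. The part of myeloid cells in the Lyn, Syk, Btk and Plcg2 values was not tested. The 3 stroma and endothelium genes with a region took 0.0124% to 0.0190% in B patches and 0.0189% to 0.0303% in T patches, so the macrophage and the stroma ranges each overlapped narrowly and the dendritic cell ranges did not overlap. Marker shares of NK cells and red cells overlapped between B and T patches.

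Scaling had little effect on these directions. With library sizes alone the median fold change of all regions shifted to −0.19, 42 of the 48 regions of the set stayed above 0 with a median of 1.87, and the 6 calls were all kept. Across the 10 patch libraries, the non-member genes whose summed log2 CPM followed each gene most closely were Ms4a1 for Blnk (Pearson r = 0.986), Napsa for Bank1 (0.989) and Plcg2 (0.972), Scd1 for Syk (0.984), Dok3 for Vav2 (0.98), Cobll1 for Lyn (0.965), Aldh2 for Btk (0.958) and Zhx2 for Blk (0.948). The next in order were H2-Ab1 for Blnk (0.981), Ctsh for Bank1 (0.978) and Lyn (0.958), Slc41a2 for Syk (0.978), Abcb10 for Vav2 (0.969), Nid1 for Plcg2 (0.965), Plekhg3 for Btk (0.957) and Cnr2 for Blk (0.945). For Ralgps2 the closest were Nudt4 (0.879) and Dnajc15 (0.827). These are descriptions over 10 libraries that split into B and T, chosen as the highest of 5546 genes.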

How the data were processed

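ATAC-seq was measured in 18 libraries of spleen B and T cells. The authors deposited 1 table of raw whole-number counts per region, and per the submitters' processing notes the tools included Bowtie2 2.4.5, MACS2 2.2.7.1, Trimmomatic 0.36 and Picard, with mm10 as the build. Not given in the sources used here were each tool's role, how duplicates were handled, whether cut sites were shifted, and whether starts count from 0 or 1. Duplicates left in would inflate single counts, most at 100 nuclei.

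The protein-coding rule gave 86.7% of the 27396 regions to 11351 genes. The gene table carries no strand, so ends are gene ends, and starts come from RefSeq promoter entries. Tests used edgeR 4.0.16 in R 4.3.3 on the counts: TMM factors, filterByExpr (minimum count 10, all 4 groups), the quasi-likelihood F-test in its default form in that version and Benjamini-Hochberg adjustment at 0.05 over all regions (25712) or gene sums (11106) tested. The patches, the 100 nuclei and their difference were fitted separately, the last on all groups. Each SE was taken as the log2 fold change over the root of its F value. Log2 CPM for likeness used a prior count of 2. Alternatives were the block by replicate number, leaving out each library, thinning, a joint fit, DESeq2 1.42.0, and further filters and scalings; the newer form of edgeR's test, the fits without patch libraries 2 and those without T libraries 3 and 4 of 100 nuclei were added after seeing the data.

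The 9 genes and the lists were chosen with earlier results of these data known. Every library's value is printed for each region of the set that passed and for each gene's region nearest an end; the other regions are given by counts and ranges. For each gene the 2 closest others by correlation are named, and from each pathway list the called regions of up to 6 genes by smallest p. Some items that these rules would name are not reported here. The Bank1 region read in all 4 B libraries of 100 nuclei, regions beyond 50 kb and Lck were named after their values were seen. So were the other Vav2 region near the start and the Prkcq and Cd5 sums. Region sequences were not used here.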

Additional observations from a re-analysis of the deposited data

Results flagged for a closer look

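In 62 groups of values examined for a library far from the rest of its group, 9 values stood apart by Dixon's rule. The rule's rate by chance, about 1 in 20 groups, holds for independent and roughly normal values. Some of these groups are mostly zeros, and gene sums share reads with their regions, so 9 of 62 cannot be set against that rate. Of the patch values, 3 came from T patch 4 and were high: the Plcg2 start region at 48.6 CPM, against 19.6 to 27.4 CPM in the other T patches, the Plcg2 sum at 82.8 CPM, against 36.5 to 49.2 CPM, and the Blk sum at 45.2 CPM, against 0 to 8.59 CPM. T patch 4 also had 0.501 CPM at the untested Btk region, against 0 to 0.132 CPM in the other T patches, a level near that of no reads. B patch 2 had 0 CPM at the Vav2 region nearest the start, against 43.8 to 61.1 CPM in the other B patches.

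At 100 nuclei, T library 1 stood apart in 3 sums: Blk at 33.5 CPM, against 0 in the other T libraries, Btk at 104 CPM, against 0, and Lyn at 168 CPM, against 0 to 1.76 CPM. B library 4 held 169 CPM of Btk, against 0 in the other B libraries. What set these libraries apart was not tested.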

How the results depend on the processing

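The number of regions of the set that passed in patches (6 of 48) became 18 with DESeq2, 26 with the newer form of edgeR's test and 15 with thinned patches. Of all regions, 4.38%, 6.33% and 2.47% passed higher in B in these fits, in that order. The number became 0 in the joint fit of 4 groups and 5 to 8 when a library was left out. Within 10 kb of a gene end, 3 of the 21 tested regions of the set passed. Over all regions the 583 calls in patches became 2112 with DESeq2, 2960 with the newer edgeR form, 1158 thinned, 1156 without the patch libraries numbered 2, 0 in the joint fit and 259 to 673 when a library was left out. With library sizes alone the split was 232 higher and 362 lower in B, against 314 and 269. At 100 nuclei the 4 calls, all mitochondrial, became 0 without mitochondrial regions, 0 with DESeq2 and 2 to 4 when a library was left out. The joint fit called 6955 of 25712 regions there, 4625 of them higher in B, and 17 of the 48 of the set, all higher in B. For the difference between capture sizes the 0 calls became 2 with DESeq2 size factors, 5 at a minimum count of 30, 3222 with DESeq2 (4 of the set) and 0 to 419 when a library was left out. Gene sums in patches passed at 475 genes, which became 791 with DESeq2, 948 with the newer edgeR form, 246 within 10 kb, 761 without libraries 2 and 331 to 542 when a library was left out, with 6 to 7 of the set. At 100 nuclei 1 gene sum passed, which became 83 with DESeq2, 0 within 10 kb, 7 without T libraries 3 and 4, and 0 to 1 when a library was left out.

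Same-numbered patches of B and T correlated by −0.004 to 0.032 in their deviations from the group means. Same-numbered libraries of 100 nuclei correlated by −0.002 to 0.013. Some libraries of each size matched their own number best and others did not. Such low values show no clear pairing but cannot tell whether same-numbered libraries shared an animal, section or preparation. With the replicate number as a block, 215 regions passed in patches (5 of the set, Syk at 52600473 being lost), 0 regions and 0 gene sums at 100 nuclei, and 365 gene sums in patches. Directions that reversed were all of values that did not pass: the Vav2 start region (0.10) was −0.069 with library sizes alone, −0.25 with the block, −0.0396 thinned and −0.17 to 0.43 when a library was left out. The Ralgps2 end (0.39) was −0.63 with the block and −1.40 to 1.52 when a library was left out. At 100 nuclei the Btk sum (0.69) was −0.30 without T libraries 3 and 4 and −6.50 to 7.096 when a library was left out, and the Ralgps2 sum (−0.82) was −2.09 to 0.27. Of the values of single regions and genes under the alternatives, 476 kept their direction and side of the threshold, 15 lost the call, 16 gained it and 12 reversed; the causes were not tested. At 100 nuclei, T libraries had reads at 2 to 18 of the 50 regions (4% to 36%, against 12.1% to 38.8% of all regions). B libraries had reads at 15 to 27 (30% to 54%, against 27.8% to 40.0% of all regions).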
